A study of Mus musculus with 192 samples.

Results

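The transcriptomes described here are those of dendritic cells stimulated with 3 innate ligands at once, labelled Zymosan depleted, 3',3'-cGAMP and CpGB, set against each of the 3 pairs that the same ligands form. The question was what the third ligand changed when the other two were already present. The 12 libraries were chosen by their labels alone: 3 of the triplet, 3 of Zymosan with cGAMP, 3 of Zymosan with CpGB and 3 of cGAMP with CpGB, out of 192 libraries in the series. That series covers 7 ligands singly, in 21 pairs and in 35 triplets, with an untreated control (Ctrl), each in 3 libraries. All cells were bone-marrow-derived dendritic cells, grown with GM-CSF at 15 ng/mL from female C57BL/6J mice aged 6 to 8 weeks, plated at 100000 cells per well and stimulated for 6 h. No group carried a genetic change, and the ligand doses are not given in the sources used here. GM-CSF cultures of marrow hold dendritic and macrophage-like cells side by side, which limits them as a model of one dendritic cell type. The labels do not say whether the 3 replicates of a group came from separate cultures or animals, so the p-values measure only the spread between these libraries, which may be technical.

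The ligands are known to enter the cell's sensing machinery at different points. Zymosan is a yeast cell wall particle, known to bind the beta-glucan receptor Dectin-1 (Clec7a), which signals through the kinase Syk and the adaptor Card9, and also Toll-like receptor 2. The labels call the preparation depleted without saying of what, so which of these routes it engaged is not given in the sources used here. The cyclic dinucleotide cGAMP binds STING (Tmem173) in the cytosol, which recruits the kinase TBK1 and the transcription factor IRF3 and switches on the interferon beta gene, Ifnb1. Class B CpG oligonucleotides bind Toll-like receptor 9 in endosomes, whose adaptor MyD88 leads to NF-kB, MAP kinases and IRF5 and so to inflammatory cytokines. Interferon beta leaves the cell and acts back on its receptor, which switches on the interferon-stimulated genes.

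The 12 libraries held 124494 to 224413 counts of unique molecules each (median 160640), and the 3 Ctrl libraries, used for the effects of single ligands, held 61823 to 89530. Levels are given as counts-per-million (CPM) after scaling of the libraries. Of 11 dendritic and macrophage markers, 10 were in the table, and their summed level was 7356 to 8225 CPM in the triplet, 8980 to 9308 in Zymosan with cGAMP, 8986 to 10192 in Zymosan with CpGB and 7826 to 9116 in cGAMP with CpGB. The triplet thus lay below both pairs with Zymosan and overlapped the pair without it. Among them Csf1r, the receptor of macrophage growth factor, fell by 0.54 ± 0.16 (log2, SE) when CpGB was added, the integrin Itgax fell by 0.99 ± 0.22 when cGAMP was added, and Cd68 rose by 0.65 ± 0.19 when Zymosan was added. Neutrophil markers summed to 513 to 976 CPM over the 12 libraries with none called, markers of T and NK cells and of erythroid cells were at 0, and those of mast cells, B cells and stromal cells reached at most 26.2, 8.73 and 8.73 CPM. The 3 plasmacytoid dendritic cell markers summed to 44.2 to 263 CPM, nearly all of it from the transcription factor Tcf4: the defining receptor Siglech had 4 counts, all in Zymosan with CpGB. Tcf4 was not called in the 3 comparisons and was higher with cGAMP alone than in Ctrl (1.76 ± 0.46 on the log2 scale, SE, adjusted p = 0.00156, edgeR). The part of cell makeup in the results below was not tested, and in these bulk libraries fewer cells of a type and less RNA per cell cannot be told apart.

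The receptors themselves were unevenly measured. Clec7a was at 390 ± 75.8 CPM (SD, n = 3) in the triplet, 585 ± 122 in Zymosan with cGAMP, 464 ± 98.9 in Zymosan with CpGB and 261 ± 21.2 in cGAMP with CpGB, and none of the 3 differences was called. Tmem173 had 6, 15, 5 and 7 counts in the same order of groups, too few to compare. Tlr9 and Card9 had 0 counts in all 12 libraries, which allows up to 8.09 CPM over the triplet and 6.18, 5.58 and 6.85 CPM over the pairs, for counting error only. Among 16 receptors and adaptors that could be tested, 1 rose and 1 fell when CpGB was added, near the 2.65% and 1.33% of all tested genes called in that comparison, and none passed with cGAMP or Zymosan added. Unc93b1, the chaperone of endosomal Toll-like receptors, was called lower with Zymosan in a fit on the 8 groups of these ligands and with thinned libraries. The riser was Fcer1g, the signalling gamma chain of Fc receptors and of C-type lectin receptors, which was higher by 0.43 ± 0.12 on the log2 scale (SE, adjusted p = 0.0168). It lost the call without triplet replicate 3 (adjusted p = 0.223), without replicate 2 or 3 of the pair (0.0915 and 0.112) and with no filter on low counts (0.152). The gene that fell was Irf5, a factor downstream of Toll-like receptors, by 0.93 ± 0.18 (adjusted p = 2.75e-05).

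Differences were tested for 4720 genes with edgeR's quasi-likelihood test and called at a Benjamini-Hochberg adjusted p under 0.05, and each is a log2 fold change of the triplet over one pair, so that a positive value means more in the triplet. Adding CpGB to Zymosan with cGAMP raised 125 genes (2.65% of those tested) and lowered 63 (1.33%). Adding cGAMP to Zymosan with CpGB raised 220 genes (4.66%) and lowered 132 (2.8%). Adding Zymosan to cGAMP with CpGB raised 141 genes (2.99%) and lowered 110 (2.33%). With libraries scaled by total count alone, the cGAMP comparison split into 178 higher and 181 lower, or 49.6% higher in place of 62.5%. Libraries that do not overlap were common: the 3 triplet libraries were all above the 3 pair libraries in 9.66%, 12.6% and 10.7% of genes with CpGB, cGAMP and Zymosan added, and all below in 11.4%, 11.7% and 11.2%. The 3 comparisons share the triplet libraries, so their values are set side by side and no overlap between them is read as a result. Which gene groups held the calls under each added ligand is shown in the plot of gene groups.

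**Figure D1:**
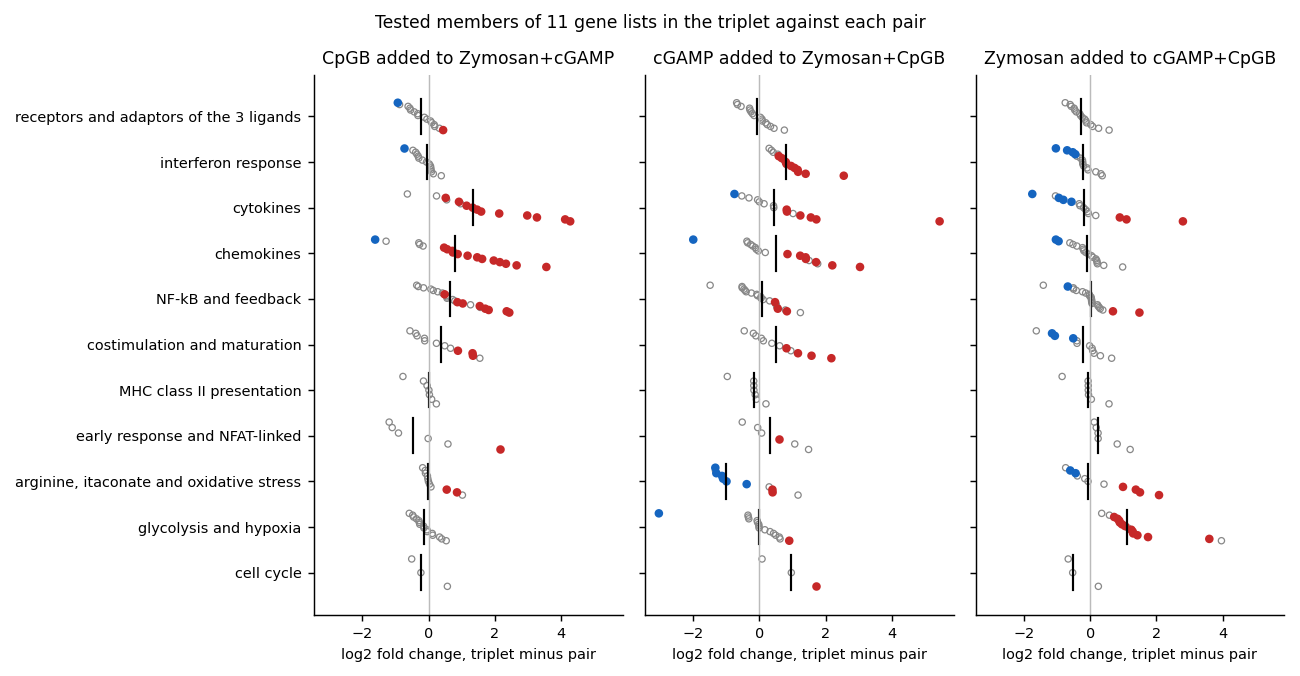
Gene groups under each added ligand. Each point is 1 tested gene of the group named on the left, placed by its log2 fold change of the triplet over the pair (x axis), with 1 panel per added ligand; red points were called higher and blue points lower by edgeR at adjusted p under 0.05, open points were not called, and the black bar is the group's median. Red points gather in cytokines (11 of 15) and chemokines (13 of 18) with CpGB, in interferon response genes (10 of 15) with cGAMP, and in glycolysis and hypoxia genes (12 of 16) with Zymosan.

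Most of the inflammatory cytokines and chemokines tested rose when CpGB was added to Zymosan with cGAMP. Of 15 cytokine genes tested, 11 rose and none fell, with a median log2 fold change of 1.33 against -0.02 for all genes. Il6, the acute-phase cytokine interleukin 6, was at 2147, 2269 and 2256 CPM in the triplet and at 220, 314 and 300.0 CPM in Zymosan with cGAMP. The 3 triplet libraries were all far above the pair, and Il6 rose by 2.97 ± 0.17 (SE, adjusted p = 4.61e-38, edgeR). Il1b, the precursor of interleukin 1 beta, was at 2668, 2923 and 3006 CPM against 645, 723 and 605 CPM, without overlap, and rose by 2.13 ± 0.14 (adjusted p = 3.32e-33).

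Other cytokines moved from a trace to a clear level. Il12b, the subunit that interleukins 12 and 23 share, was at 226, 349 and 304 CPM in the triplet and at 40.8, 12.8 and 0 CPM in the pair. All triplet libraries were above all pair libraries, and the rise was 4.27 ± 0.62 (adjusted p = 1.50e-08). Il10, the cytokine that restrains inflammation, had 31 counts over the triplet (69.5, 105 and 77.8 CPM) and 2 counts over the pair (8.16, 0 and 4.84 CPM). Its ratio was 20.3, with a 95% interval of 5.16 to 175 for counting error only, and its adjusted p in the fit was 1.11e-05. Batf, a transcription factor that partners with IRF4 and IRF8, had 22 counts over the triplet and 1 over the pair, a ratio of 28.8 with a wide interval of 4.65 to 1188 (adjusted p = 6.20e-05). Lta, the tumour necrosis factor relative lymphotoxin alpha, was at 105 ± 34.6 CPM (SD, n = 3) against 9.11 ± 7.93 CPM and rose by 3.27 ± 0.58 (adjusted p = 6.25e-06). Il23a, the other subunit of interleukin 23, was not tested, having no count in the triplet or in the pairs with Zymosan.

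The promoter of Il6, the cytokine with the smallest p here, is shown for the letters of motifs that factors downstream of Toll-like receptors are known to bind. The 250 bases before its start in RefSeq (GRCm38.p6, chr5:30012864-30013113, plus strand) follow, with an AP-1 motif (TGA and TCA with any base between them) and an NF-kB motif in capitals.
Il6: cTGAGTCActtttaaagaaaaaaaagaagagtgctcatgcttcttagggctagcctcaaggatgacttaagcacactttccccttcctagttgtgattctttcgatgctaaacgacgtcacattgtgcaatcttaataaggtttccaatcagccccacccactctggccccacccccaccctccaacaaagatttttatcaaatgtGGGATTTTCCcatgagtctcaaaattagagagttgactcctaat
The AP-1 letters lie 249 to 243 bases upstream and the NF-kB letters 44 to 35 bases upstream. Both strands were searched. Of 10 cytokines called higher with CpGB that have a promoter entry, 3 hold the NF-kB motif (Il6, Ebi3 and Ifnb1) and 3 the AP-1 motif (Il6, Il1a and Il1rn), against 11.2% and 5.95% of the 3614 tested genes with an entry and 7.25% and 6.75% of all 32851 windows. Of the 2 other tested cytokines with an entry, 1 holds the NF-kB motif (Csf1) and none the AP-1 motif. Among the chemokines called higher, 4 of 7 with an entry hold the NF-kB motif, namely Ccl9, Cxcl1, Cxcl2 and Cxcl3, as does 1 of the 4 others, Cxcl10. A match of letters describes the window and does not show binding, and the promoters printed here were chosen after the values were seen.

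**Figure D2:**
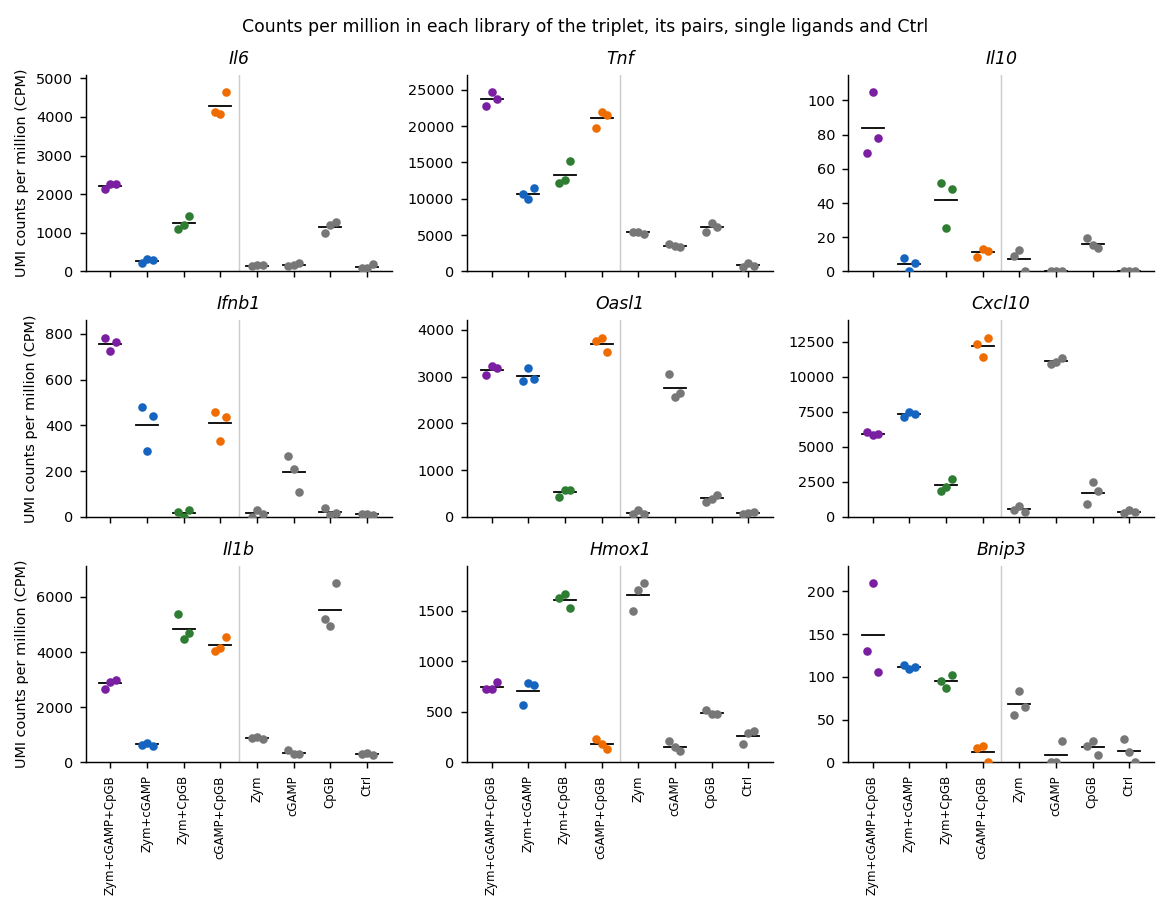
Levels of 9 genes by library. Each point is the level in 1 library, in UMI counts-per-million on a linear axis, for the 3 replicates of the triplet and the pairs in colour and of the single ligands and Ctrl in grey, with a bar at the group mean; Zym stands for Zymosan. Il6 among the coloured groups is lowest in Zymosan with cGAMP (220 to 314) and highest in cGAMP with CpGB (4086 to 4636), and Ifnb1 is at 0 to 29.1 in Zymosan with CpGB.

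Of 18 chemokine genes, 13 rose when CpGB was added and 1 fell, with a median of 0.80. Ccl22, which draws in lymphocytes, was at 1226, 1065 and 1287 CPM in the triplet and at 474, 365 and 353 CPM in the pair. The groups did not overlap and the rise was 1.61 ± 0.17 (adjusted p = 1.07e-15). Cxcl1, which draws in neutrophils, stood at 657 ± 25.7 CPM against 131 ± 15.6 CPM (rise 2.33 ± 0.28), Ccl2, which draws in monocytes, at 730 ± 83.2 against 165 ± 21.0 (2.15 ± 0.26), and Ccl3, an inflammatory chemokine, at 13125 ± 105 against 5822 ± 122 (1.17 ± 0.14). The 1 chemokine that fell was Cxcl9, a CXCR3 ligand known as a target of interferon gamma, at 209, 175 and 184 CPM in the triplet against 555, 563 and 615 CPM in the pair, a difference of -1.62 ± 0.24 (adjusted p = 2.87e-08). Its relative Cxcl10 was at 5947 ± 94.4 against 7320 ± 168 CPM, with no call (-0.30 ± 0.17, adjusted p = 0.396).

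Of 22 genes that regulate NF-kB or feed back on cytokine signals, 8 rose with CpGB and none fell (median 0.64). Socs3, the inhibitor of gp130 receptor signalling, was at 669, 742 and 736 CPM against 171, 70.4 and 174 CPM, with no overlap and a rise of 2.35 ± 0.21 (adjusted p = 3.34e-20). Nfkbiz, the nuclear IkB protein needed for Il6 induction, rose by 2.43 ± 0.26, and the NF-kB subunit Nfkb1 by 1.03 ± 0.15. Ptgs2, the cyclooxygenase of prostaglandin synthesis and the 1 of 6 tested early response genes that was called, was at 744 ± 141 against 165 ± 37.6 CPM (2.14 ± 0.24, adjusted p = 1.25e-13). Of 12 costimulation and maturation genes, 3 rose: the CD40 receptor Cd40 (1.32 ± 0.17), the TNF family ligand Tnfsf15 (1.34 ± 0.19) and Cd83 (0.88 ± 0.28, adjusted p = 0.0479). The call of Cd83 was lost without each of the 6 libraries in turn, with adjusted p from 0.0568 without pair replicate 1 to 0.288 without triplet replicate 2. It was also lost with total count alone (0.0542), no filter (0.196), DESeq2 (0.0682) and thinned libraries (0.0865), and Cd40 and Tnfsf15 kept theirs.

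Of 15 interferon response genes, only Ifit3, an antiviral gene of the IFIT family, passed the test: it fell by 0.75 ± 0.18 (adjusted p = 0.00297), from 2417 ± 162 CPM in the pair to 1433 ± 107 CPM. None of 16 glycolysis and hypoxia genes, 7 genes of MHC class II presentation or 3 cell cycle genes was called, counts that lie near the 2.65% and 1.33% called among all genes and say nothing particular about these groups. Hif1a was called higher without triplet replicate 3, and 0 to 1 cell cycle genes were called lower over 14 settings of the processing. Among 11 genes of arginine, itaconate and oxidative stress, the mitochondrial superoxide dismutase Sod2 rose by 0.85 ± 0.11 and the arginine transporter Slc7a2 by 0.54 ± 0.12, a call lost with no filter (adjusted p = 0.0502).

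The 5 largest falls with CpGB, counting genes that reached an average of 50 CPM and whose libraries did not overlap, were Klf4, Cd300a, Slc37a2, Ncoa7 and Tbxas1. Klf4, a zinc finger factor of monocytes and macrophages, was at 26.1, 34.9 and 21.2 CPM in the triplet and at 114, 128 and 102 CPM in the pair, a difference of -2.05 ± 0.47 (adjusted p = 0.00119). The 4 others kept their direction under every alternative tried but lost the call in some. Cd300a, an inhibitory receptor (-1.95 ± 0.58, adjusted p = 0.0316), lost the call without triplet replicate 1, 2 or 3 (adjusted p = 0.116, 0.0553 and 0.178) or pair replicate 1 or 2 (0.116 and 0.0749), with values from -1.76 to -2.22, and in DESeq2 (0.0783). Slc37a2, a sugar phosphate transporter of macrophages (-1.92 ± 0.54), lost it without triplet replicate 2 or 3 (0.0979 and 0.107) or pair replicate 3 (0.115), and in DESeq2 (0.0565). For Ncoa7 (-1.88 ± 0.50) the call was lost without triplet replicate 1 or 3 (0.0518 and 0.0967) or pair replicate 2 (0.0813). Tbxas1, the thromboxane synthase (-1.69 ± 0.37), lost it without triplet replicate 3 (0.0659).

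Interferon beta and most of the interferon response genes tested rose when cGAMP was added to Zymosan with CpGB. Ifnb1 was at 782, 724 and 764 CPM in the triplet and at 22.1, 0 and 29.1 CPM in Zymosan with CpGB. All triplet libraries were far above the pair, in which 1 library had no count, and the rise was 5.44 ± 0.36 (adjusted p = 5.02e-32). Of 15 interferon response genes, 10 rose and none fell, with a median of 0.79 against 0.0 for all genes. Oasl1, a 2'-5' oligoadenylate synthetase-like protein that limits IRF7 translation, was at 3025, 3229 and 3175 CPM against 434, 574 and 587 CPM, with no overlap and a rise of 2.54 ± 0.20 (adjusted p = 2.14e-24). Cxcl10, the CXCR3 ligand, was at 6050, 5864 and 5926 CPM against 1862, 2157 and 2734 CPM and rose by 1.39 ± 0.17 (adjusted p = 2.36e-11). Rsad2, the antiviral enzyme viperin, rose by 1.16 ± 0.15 and its genomic neighbour Cmpk2, a mitochondrial nucleotide kinase, by 1.15 ± 0.15. Ifit1, the cap-binding antiviral protein, rose by 0.82 ± 0.14. Mx1, the antiviral GTPase, stayed without a call at 3782 ± 46.1 against 3083 ± 412 CPM (0.29 ± 0.13, adjusted p = 0.1595).

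The promoters of Ifnb1 and Cxcl10 are shown as those of the interferon gene itself and of an interferon response gene, which are known to carry binding letters for IRF and NF-kB factors. Both windows cover the 250 bases before the RefSeq start (GRCm38.p6, minus strand), at chr4:88522795-88523044 for Ifnb1 and chr5:92348890-92349139 for Cxcl10. In capitals are matches to the core of the interferon-stimulated response element (GAAA on either side of any 2 bases), AP-1 and NF-kB.
Ifnb1: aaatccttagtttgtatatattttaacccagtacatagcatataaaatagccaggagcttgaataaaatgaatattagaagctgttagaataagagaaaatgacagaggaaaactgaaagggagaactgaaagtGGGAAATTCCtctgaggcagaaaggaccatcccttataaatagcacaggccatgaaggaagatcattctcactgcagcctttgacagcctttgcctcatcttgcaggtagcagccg
Cxcl10: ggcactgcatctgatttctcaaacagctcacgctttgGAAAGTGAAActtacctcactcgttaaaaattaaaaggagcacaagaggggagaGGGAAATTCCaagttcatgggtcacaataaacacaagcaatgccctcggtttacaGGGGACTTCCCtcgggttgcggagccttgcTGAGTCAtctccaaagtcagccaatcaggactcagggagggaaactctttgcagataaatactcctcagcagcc
The Ifnb1 window holds an NF-kB motif 116 to 107 bases upstream and no exact match to the response element core. The Cxcl10 window holds the core 213 to 204 bases upstream, NF-kB motifs at 159 to 150 and, overlapping each other, at 104 to 95 and 103 to 94, and AP-1 at 74 to 68. Among interferon response genes called higher with cGAMP, 4 of 8 with an entry hold the core (Ifit1, Isg15, Rsad2 and Cxcl10), as does 1 of 3 of the others, Ifit3. The core is in 4.32% of tested genes with an entry and in 2.98% of all windows.

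Of 18 chemokines, 7 rose and 1 fell with cGAMP, and of 15 cytokines 6 rose and 1 fell, against 4.66% and 2.8% of all genes. Over 14 settings of the processing, 7 to 9 chemokines were called higher and 1 to 2 lower. For cytokines 4 to 7 were called higher, and 1 lower in every setting. Ccl5, an inflammatory chemokine, was at 29466, 27916 and 32573 CPM against 10906, 10226 and 12966 CPM, without overlap (1.40 ± 0.14, adjusted p = 4.79e-16). Cxcl9 was at 209, 175 and 184 CPM against 36.8, 20.5 and 14.5 CPM (3.03 ± 0.43, adjusted p = 4.00e-09). Ccl4 rose by 1.23 ± 0.15. Cxcl3, a CXCR2 ligand that attracts neutrophils, went the other way, at 817, 724 and 743 CPM against 3128, 3146 and 2860 CPM, a difference of -2.00 ± 0.22 (adjusted p = 4.22e-14).

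Il6 rose by 0.82 ± 0.14 with cGAMP, from 1111, 1199 and 1444 CPM, and Tnf by 0.83 ± 0.15, from 12106, 12639 and 15244 CPM to 22808, 24626 and 23669 CPM. Among the cytokines counted, Il1b was the only one that fell, by 0.76 ± 0.12, from 5372, 4483 and 4692 CPM to the triplet level of 2668 to 3006 CPM. The cytokine gene Il1f9 is outside all counts of this group, which held it under another symbol. It fell with cGAMP too, as given below. Il12b was called higher (1.23 ± 0.40, adjusted p = 0.0328), but not without triplet replicate 2 or 3 (adjusted p = 0.158 and 0.106), without pair replicate 1 or 2 (0.0849 and 0.157), in DESeq2 (0.137) or thinned (0.0704). Il10 was above the pair in every library with no call, at 31 counts against 22 (1.01 ± 0.47, adjusted p = 0.201).

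Of 12 costimulation genes, 4 rose with cGAMP and none fell. Tnfsf15 was at 2608, 2845 and 2574 CPM against 405, 687 and 654 CPM, without overlap, and rose by 2.17 ± 0.20 (adjusted p = 1.78e-18). Cd86, the CD28 ligand, rose by 1.57 ± 0.27, Il15ra, the receptor chain that presents interleukin 15, by 1.16 ± 0.21, and Cd40 by 0.82 ± 0.16. In the NF-kB group 3 of 22 were called, all higher and each by under 1 on the log2 scale: Tnfaip3, the ubiquitin-editing inhibitor A20 (0.55 ± 0.14), Traf1 (0.83 ± 0.23) and Nfkb1 (0.47 ± 0.14). Tnfaip3 lost the call without triplet replicate 3 (adjusted p = 0.0939) or pair replicate 1 (0.0615), Traf1 without triplet replicate 2 (0.0584) or pair replicate 3 (0.0552), and Nfkb1 without triplet replicate 1 or 2 (0.247 and 0.0868) or pair replicate 1 or 2 (0.137 and 0.0602). Thinned libraries gave no call for Traf1 (0.1097) or Nfkb1 (0.0844), nor did total count alone for Nfkb1 (0.0665). With no filter on low counts the group had no call. The NF-kB inhibitor Tnip1 and Irak3, which restrains Toll-like receptor signalling, were called lower with total count alone, thinned libraries or without pair replicate 3, and Irak3 also in the fit on the 8 groups, so the group has no single direction. Ptgs2 was called higher as well (0.59 ± 0.20, adjusted p = 0.0484), and not without triplet replicate 1 or 3 (0.118 and 0.338) or pair replicate 1 or 2 (0.134 and 0.218), nor with total count alone (0.0773), no filter (0.0849), DESeq2 (0.0946) or thinned libraries (0.0609). Of 3 cell cycle genes tested, Pcna, the sliding clamp of DNA replication, rose from 187 ± 25.3 to 605 ± 21.5 CPM (1.70 ± 0.21, adjusted p = 2.99e-11).

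Genes of the oxidative stress response went down with cGAMP: 6 of 11 genes in the arginine, itaconate and oxidative stress group fell and 2 rose, with a median of -1.0. Hmox1, the haem oxygenase, was at 721, 724 and 792 CPM in the triplet and at 1626, 1660 and 1527 CPM in Zymosan with CpGB. No triplet library reached the pair, and the difference was -1.10 ± 0.18 (adjusted p = 7.07e-07). Slc7a11, the cystine transporter, was at 278, 314 and 233 CPM against 648, 697 and 674 CPM (-1.30 ± 0.20, adjusted p = 3.10e-08). Srxn1, the sulfiredoxin (-1.33 ± 0.21), and Txnrd1, the thioredoxin reductase (-1.13 ± 0.17), fell too, and these 4 genes are textbook targets of the factor NRF2. The genes called higher were Irg1, the enzyme that makes itaconate (0.40 ± 0.11, adjusted p = 0.00908), and Slc7a2 (0.39 ± 0.12, adjusted p = 0.0184). Irg1 lost the call without triplet replicate 2 (0.0657) or pair replicate 1 (0.0587) and with no filter (0.225). Slc7a2 lost it with total count alone (0.0703) and no filter (0.389), and without triplet replicate 2 or 3 (0.0728 and 0.0762) or any of the pair's replicates (0.0571, 0.0613 and 0.0517).

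The largest rises with cGAMP by the naming rule were of genes nearly silent in Zymosan with CpGB. Plagl1, a zinc finger transcription factor, had 19 counts over the triplet and 0 over the pair, so it was at least 9.17-fold higher when the pair is set to 3 counts over the group. Psip1, a chromatin-binding protein, had 22 counts against 1 (ratio 31.9, 95% counting interval 5.15 to 1315). Intu, a ciliary polarity effector, had 41 against 3 (ratio 19.8, 6.32 to 99.9), and Armcx6 had 21 against 2 (ratio 15.2, 3.72 to 134). All 4 were called, with adjusted p of 2.11e-05, 6.77e-05, 6.82e-08 and 0.000442.

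The 5 largest falls with cGAMP were of Egln3, Il1f9, Sephs2, Sla and Tfec. Egln3, the oxygen-sensing prolyl hydroxylase 3, was at 8.69, 8.73 and 14.1 CPM against 66.2, 92.2 and 116 CPM, without overlap (-3.04 ± 0.68, adjusted p = 0.000546). It was the 1 of 16 glycolysis and hypoxia genes that fell, and the 1 that rose, the phosphofructokinase Pfkp (0.90 ± 0.25, adjusted p = 0.0104), lost the call without triplet replicate 1 or 3 (0.08195 and 0.155) or pair replicate 1 (0.0971). Over 14 settings of the processing, 0 to 3 genes of the group were called higher and 1 to 2 lower. Il1f9, the interleukin 36 gamma gene, was at 26.1, 17.5 and 28.3 CPM against 125, 174 and 189 CPM (-2.74 ± 0.43, adjusted p = 1.82e-07), and Sla, an adaptor that limits receptor signalling, fell by 2.58 ± 0.42. Sephs2, a selenophosphate synthetase (-2.58 ± 0.79), lost its call without triplet replicate 1 or 2 (0.1387 and 0.1403) or pair replicate 3 (0.0856), and in DESeq2 (0.0682). Tfec, a factor of the macrophage lineage (-2.32 ± 0.62), lost its call without triplet replicate 1 (0.0803) or pair replicate 2 (0.0653), and thinned (0.0583).

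Most of the glycolysis and hypoxia genes tested rose when Zymosan was added to cGAMP with CpGB. Of 16 glycolysis and hypoxia genes, 12 rose and none fell, with a median of 1.10 against -0.01 for all genes. Ldha, the lactate dehydrogenase subunit, was at 2755, 2653 and 3013 CPM in the triplet and at 1002, 1020 and 1111 CPM in cGAMP with CpGB. The groups were far apart, and the rise was 1.42 ± 0.16 (adjusted p = 7.32e-13). Pgam1, the phosphoglycerate mutase, was at 791 ± 90.7 against 324 ± 14.8 CPM (1.28 ± 0.20) and Tpi1, the triosephosphate isomerase, at 370 ± 43.5 against 111 ± 29.6 CPM (1.74 ± 0.27). Bnip3, a mitophagy receptor known as a hypoxia gene, was at 130.4, 209 and 106 CPM against 17.0, 19.6 and 0 CPM, with no overlap and a rise of 3.59 ± 0.56 (adjusted p = 2.11e-07). Levels in the other pairs, both of which contain Zymosan, were 2250 ± 122 and 3414 ± 393 CPM for Ldha and 94.9 ± 7.38 and 112 ± 2.74 CPM for Bnip3.

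**Figure D3:**
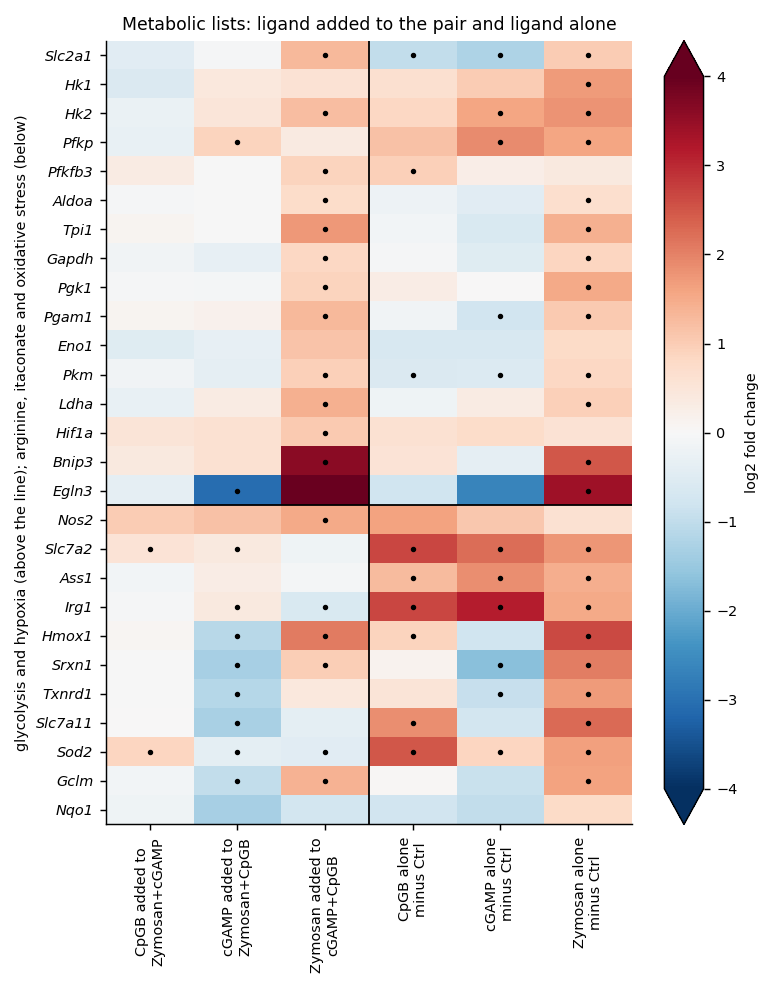
Metabolic gene groups, with each ligand added to the pair (left) or given alone (right). Colour gives the log2 fold change of each gene (rows; red higher, blue lower, colours end at 4 and -4), and a dot marks an edgeR call at adjusted p under 0.05. In the glycolysis and hypoxia rows above the line, dots stand at 12 of 16 genes where Zymosan was added to cGAMP with CpGB and at none where CpGB was added.

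The promoter of Bnip3 is shown since it had the largest fold change among the genes called in this group. The window is chr7:138909507-138909756 (GRCm38.p6, minus strand, RefSeq), and the capitals mark the core of the hypoxia response element, ACGTG, which here reads on both strands in 6 overlapping bases.
Bnip3: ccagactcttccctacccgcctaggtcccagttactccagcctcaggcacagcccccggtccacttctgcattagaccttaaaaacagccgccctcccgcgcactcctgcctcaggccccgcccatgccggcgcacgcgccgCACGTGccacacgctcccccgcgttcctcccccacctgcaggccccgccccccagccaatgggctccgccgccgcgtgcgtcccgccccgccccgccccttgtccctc
These letters lie 108 to 103 bases upstream of the start. The core is in the windows of 10 of the 12 glycolysis and hypoxia genes called higher with Zymosan and of 1 of the other 4, Egln3. It is a short motif, present in 27.5% of tested genes with an entry and in 16.6% of all windows, and it was added to the search after the values were seen.

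In the arginine, itaconate and oxidative stress group, 4 of 11 genes rose with Zymosan and 2 fell. Hmox1 was at 721, 724 and 792 CPM against 229, 183 and 131 CPM, without overlap, and rose by 2.08 ± 0.25 (adjusted p = 2.29e-11). Gclm, a subunit of the enzyme that starts glutathione synthesis (1.38 ± 0.35), Srxn1 (0.99 ± 0.27) and Nos2, the inducible nitric oxide synthase (1.5 ± 0.49, adjusted p = 0.0459), lost the call in some refits. Gclm lost the call without triplet replicate 2 (0.07006) or pair replicate 1 (0.0913), Srxn1 without triplet replicate 2 or 3 (0.117 and 0.0757) or pair replicate 2 or 3 (0.0586 and 0.0984), and Nos2 without each of the 6 libraries in turn (0.0609 to 0.271), with no filter (0.0585), in DESeq2 (0.0627) and thinned (0.175). Of the 4 that rose, only Hmox1 was called in every refit without a library. Irg1 fell by 0.60 ± 0.11, from 5518, 5492 and 5550 CPM to 3468, 3796 and 3635 CPM (adjusted p = 7.91e-06), and Sod2 by 0.44 ± 0.10 (adjusted p = 0.001297).

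Several inflammatory and interferon genes were lower with Zymosan than without it. Il6 was at 2147, 2269 and 2256 CPM in the triplet against 4134, 4086 and 4636 CPM in cGAMP with CpGB, a difference of -0.95 ± 0.14 (adjusted p = 1.45e-08). The triplet thus lay between the 2 pairs with CpGB and above the pair without it. Il12a, the p35 subunit of interleukin 12, was at 86.9, 87.3 and 56.6 CPM against 280.2, 209 and 281 CPM (-1.75 ± 0.30, adjusted p = 3.18e-06). Il1b fell by 0.57 ± 0.12. Il15, a cytokine for NK and memory T cells, was called lower (-0.81 ± 0.25, adjusted p = 0.0341) and lost the call without triplet replicate 1 or 3 (0.205 and 0.0596) or pair replicate 1 or 3 (0.145 and 0.0716), in DESeq2 (0.0663) and thinned (0.147).

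Other cytokines rose with Zymosan, 3 of 15 in all against the 4 that fell. Il1rn, the interleukin 1 receptor antagonist, was at 8405, 8596 and 8698 CPM against 4219, 3622 and 4194 CPM, without overlap (1.10 ± 0.15, adjusted p = 8.39e-09). Il10 had 31 counts against 5 (69.5, 105 and 77.8 CPM against 8.49, 13.1 and 11.95 CPM) and rose by 2.80 ± 0.63 (adjusted p = 0.000872). Ifnb1 was at 782, 724 and 764 CPM against 458, 334 and 436 CPM, without overlap (0.89 ± 0.21, adjusted p = 0.001895), and its call was lost without replicate 2 of the pair (0.72, adjusted p = 0.0735). Tnf was above the pair in every library with no call (0.17 ± 0.15, adjusted p = 0.654).

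No chemokine of 18 rose with Zymosan and 2 fell, while with total count alone or in a fit on the 8 groups Ccl4 was called higher. Cxcl10 was at 6050, 5864 and 5926 CPM against 12369, 11449 and 12778 CPM, without overlap, a difference of -1.04 ± 0.17 (adjusted p = 4.39e-07), and Cxcl3 fell by 0.95 ± 0.23. Of 15 interferon response genes 4 fell: Cxcl10, Ifit3 (-0.70 ± 0.18), Mx1 (-0.45 ± 0.12) and Cmpk2 (-0.53 ± 0.15, adjusted p = 0.0114). Cmpk2 lost the call without triplet replicate 3 (0.0538) or pair replicate 2 (0.0619). Of 12 costimulation genes 3 fell: Cd69, an early activation antigen, at 426, 401 and 424 CPM against 789.5, 883 and 1093 CPM (-1.15 ± 0.19, adjusted p = 1.61e-06), the adhesion molecule Icam1 (-1.07 ± 0.18) and Cd40 (-0.51 ± 0.15, adjusted p = 0.0155). Cd40 lost the call without triplet replicate 2 (0.0779) or pair replicate 3 (0.107). In the NF-kB group the phosphatase Dusp1, which switches MAP kinases off, rose by 1.49 ± 0.32, Socs3 rose by 0.69 ± 0.17 and Nfkbiz fell by 0.68 ± 0.18. Socs3 lost the call without pair replicate 3 (0.0737).

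The largest rises with Zymosan by the naming rule were of Adamtsl5, Bnip3, Gm7120, Il33 and Car2. Car2, the cytosolic carbonic anhydrase 2, was at 209, 244 and 219 CPM against 25.5, 13.1 and 35.8 CPM, without overlap (3.12 ± 0.42, adjusted p = 2.67e-09). Il33, the alarmin interleukin 33, had 28 counts over the triplet and 3 over cGAMP with CpGB, a ratio of 11.02 (95% counting interval 3.40 to 56.65, adjusted p = 0.000843). It also had 3 counts over Zymosan with CpGB, a ratio of 13.5 (4.18 to 69.5), and was called there too, while its 15 counts over Zymosan with cGAMP gave no call. Adamtsl5, an extracellular matrix protein, had 25 counts against 2 (ratio 14.8, 3.68 to 129), and Gm7120, a predicted gene, rose by 3.39 ± 0.59.

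The 5 largest falls with Zymosan were of Sephs2, Smpdl3b, Igsf9, Scimp and Foxn2. Smpdl3b, a lipid-modifying phosphodiesterase at the membrane, was at 8.69, 8.73 and 14.1 CPM against 84.9, 78.5 and 59.7 CPM (-2.68 ± 0.66, adjusted p = 0.00285), and the forkhead factor Foxn2 fell by 1.87 ± 0.43. Sephs2 (-2.88 ± 0.77) lost the call without triplet replicate 1 or 2 (0.0762 and 0.07204) or pair replicate 2 (0.0894). Igsf9 (-2.20 ± 0.70) lost it without triplet replicate 1 or 3 (0.236 and 0.193) or pair replicate 2 or 3 (0.0581 and 0.184), with no filter (0.0968), in DESeq2 (0.1165) and thinned (0.0955). Scimp, an adaptor at the immune synapse (-2.17 ± 0.59), lost it without triplet replicate 2 (0.116) or pair replicate 3 (0.0504).

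Each comparison taken by itself, 4 of the 4720 genes tested were called higher in the triplet than in every pair and 3 lower. The 3 comparisons share the triplet libraries, so these counts are listed and not read as a result. Those higher were Ifnb1, Edn1, the vasoconstrictor endothelin 1, and the transcripts A630072M18Rik and AA467197. Those lower were Actr2, a subunit of the actin-nucleating Arp2/3 complex, the RNA helicase Dhx15 and Pstpip2, an F-BAR protein of macrophages. Their smallest differences were 0.89, 0.74, 0.92 and 0.42 above and 0.43, 1.3 and 1.03 below. A stricter joint test took the largest of a gene's 3 p-values and adjusted it over all genes. By it no gene was above all 3 pairs and none below at an adjusted p under 0.05 in edgeR over the 192 libraries (0% each), and Ifnb1 had the smallest value above (adjusted p = 0.195). With that largest p under 0.05 unadjusted there were 37 genes above (0.784%) and 44 below (0.932%), and DESeq2 gave none adjusted, with 34 and 26 unadjusted. The same joint test was run in a fit on the 8 groups of these 3 ligands alone. That fit tested 3318 genes, so it adjusted over fewer, and it took its spread from these libraries only. Which of these changes moved the calls was not tested. It called 5 genes above and 1 below. Ifnb1 led them, at 757 ± 29.6 CPM (SD, n = 3) in the triplet against 403 ± 102, 17.05 ± 15.2 and 409 ± 66.7 CPM in Zymosan with cGAMP, Zymosan with CpGB and cGAMP with CpGB. All 3 triplet libraries of Ifnb1 were above all 9 pair libraries, as were those of 1.14% of all genes tested (1.36% were all below), and its smallest difference in that fit was 0.88 (adjusted p = 0.00352). In the fit over all libraries Ifnb1 rose by 0.91 ± 0.21 when CpGB was added (adjusted p = 0.00152), and that call was lost without replicate 2 of Zymosan with cGAMP (0.71, adjusted p = 0.0739). Il1rn (0.45), Edn1 (0.73), Ccl4 (0.40) and A630072M18Rik (0.92) were the others above, and Actb, the cytoplasmic actin, was below (0.39 lower). The genes of this paragraph are named because few passed, after their values were seen.

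The effect of a ligand on the pair was then compared with its effect alone, the single ligand against Ctrl, as a difference of log2 fold changes within the same fit. For CpGB this difference was above 0 in 97 genes (2.06%) and below 0 in 392 (8.31%), for cGAMP in 63 (1.33%) and 358 (7.58%), and for Zymosan in 51 (1.08%) and 173 (3.67%). The 3 differences share the triplet and Ctrl libraries. All 15 interferon response genes tested were below 0 for CpGB (median -2.78) and all 15 for cGAMP (median -3.38), and 6 of 15 for Zymosan (median -1.06). Alone, CpGB raised all 15 (median 2.51; 12.5% of all genes) and cGAMP raised all 15 (median 4.22; 13.5%), while Zymosan raised 3 (6.23% of all genes).

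Single genes show the pattern. Gbp2, an interferon-induced GTPase, was raised by CpGB alone by 3.10 ± 0.18, and in the presence of Zymosan with cGAMP the difference was -0.17 ± 0.12. The pair stood at 2735, 2797 and 2667 CPM and the triplet at 2173, 2531 and 2588 CPM. Mx1 was raised by cGAMP alone by 3.71 ± 0.17, against 0.29 ± 0.13 on the pair. Ifit1 was raised by cGAMP alone by 4.66 ± 0.20, against 0.82 ± 0.14 on the pair. Clec4e, the C-type lectin Mincle, was raised by Zymosan alone by 2.80 ± 0.15, against -0.11 ± 0.11 on the pair, where its libraries were at 2454, 2334 and 2390 CPM and those of the triplet at 2260, 2234 and 2171 CPM. Tnf rose under each single ligand (2.83 ± 0.19 with CpGB, 2.04 ± 0.19 with cGAMP and 2.65 ± 0.19 with Zymosan) and its changes on the pairs were 1.14 ± 0.15, 0.83 ± 0.15 and 0.17 ± 0.15.

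Differences below 0 were called in other groups too. Of 18 chemokines 10, 6 and 7 were below 0 for CpGB, cGAMP and Zymosan, of 12 costimulation genes 7, 8 and 2, and of 11 genes of arginine, itaconate and oxidative stress 5, 4 and 6. Of 15 cytokines 4 were below 0 for each ligand, and of 22 NF-kB and feedback genes 6, 4 and 3. The 1 member of these groups with a difference above 0 was Tnip3, an inhibitor of NF-kB, for CpGB. Among 16 receptors and adaptors, Clec7a was above 0 for CpGB and for Zymosan. Malt1 was below 0 for CpGB and Zymosan, and Myd88 for CpGB and cGAMP. Pcna, 1 of 3 cell cycle genes, was above 0 for CpGB. Of 7 MHC class II genes, H2-Aa and H2-DMb1 were below 0 for cGAMP. Of 6 early response genes, Junb was below 0 for CpGB and Ptgs2 for Zymosan.

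In the glycolysis and hypoxia group, Hk2, a hexokinase, was below 0 for CpGB and for cGAMP, near the 8.31% and 7.58% of all genes. The glucose transporter Slc2a1 and Pgam1 were above 0 for cGAMP, against 1.33% of all genes. Of the glycolysis and hypoxia genes, 13 of 16 rose with Zymosan alone (median 1.02), against 6.23% of all genes. The difference between the effect on the pair and that alone was called for none of the 16 at adjusted p under 0.05 (median 0.27, edgeR). That count is near the 3.67% below 0 and 1.08% above 0 among all genes. Ldha rose by 0.94 ± 0.17 with Zymosan alone and by 1.42 ± 0.16 on the pair, a difference of 0.49 ± 0.23 (adjusted p = 0.288). Differences of Hmox1 and Il6 were also not called. Hmox1 rose by 2.66 ± 0.24 alone and by 2.08 ± 0.25 on the pair (difference -0.58 ± 0.38, adjusted p = 0.513). Il6 rose by 3.15 ± 0.24 with CpGB alone and by 2.97 ± 0.17 on the pair (difference -0.17 ± 0.34, adjusted p = 0.841). A p above the threshold does not show that the effects are equal, and the SEs of 0.23 to 0.38 set the precision.

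**Figure D4:**
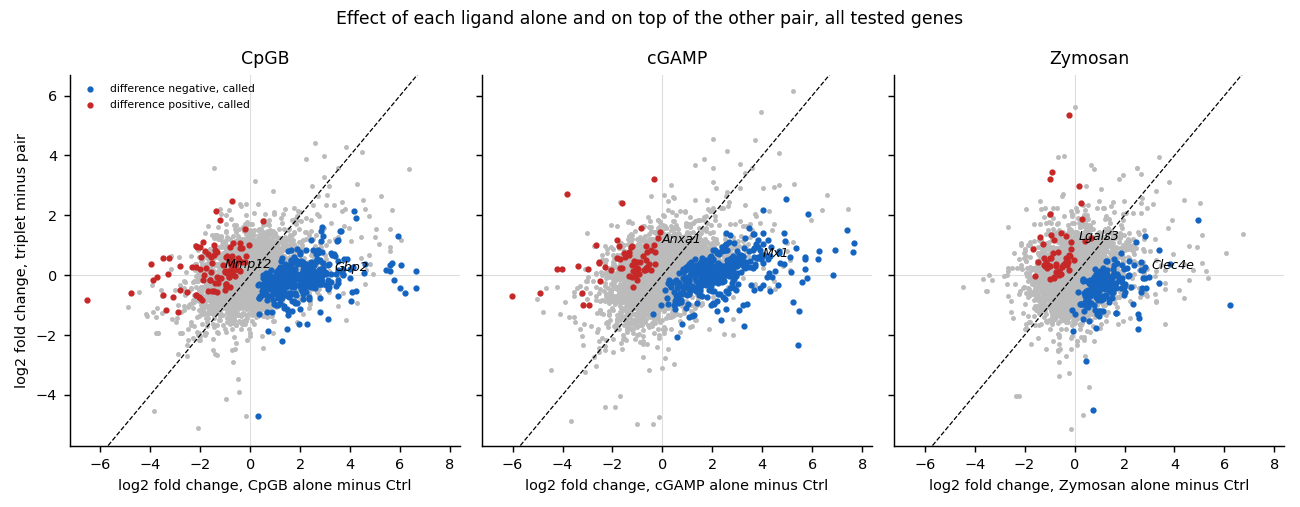
A ligand's effect alone and on the pair. Each point is 1 of 4720 genes, with the log2 fold change of the single ligand over Ctrl on the x axis and of the triplet over the pair on the y axis, 1 panel per ligand; blue and red points have a called difference below and above 0, and the dashed line marks equal effects. Gbp2 (3.10 and -0.17), Mx1 (3.71 and 0.29) and Clec4e (2.80 and -0.11) lie right of the line and close to 0 on the y axis.

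Genes with a difference above 0 were fewer. Lgals3, the lectin galectin 3, fell by 1.41 ± 0.12 with CpGB alone and differed by -0.26 ± 0.11 on the pair, and with Zymosan it differed by -0.13 ± 0.12 alone and rose by 0.87 ± 0.12 on the pair, from 1851, 2125 and 1894 CPM to 3512, 3395 and 3791 CPM. Mmp12, the macrophage elastase, fell by 1.32 ± 0.14 with CpGB alone against -0.05 ± 0.14 on the pair. Dendritic and macrophage markers moved with the single ligands too: of 6 tested, 4 were lower with CpGB alone (Itgam, Csf1r, Lyz2 and Cd68), 5 with cGAMP alone and 1 with Zymosan alone, against 8.92%, 8.16% and 2.86% of all genes, and Cd68 was above 0 in the differences for CpGB and Zymosan. The summed level of these markers was 12223 to 14508 CPM in Ctrl, 10241 to 10661 in CpGB, 9472 to 9968 in cGAMP and 10789 to 11085 in Zymosan alone, and their part in the differences was not tested. Anxa1, the anti-inflammatory protein annexin A1, differed by -0.31 ± 0.16 with cGAMP alone and rose by 0.77 ± 0.16 on the pair, from 1104, 1189 and 1318 CPM to 2104, 1964 and 2129 CPM.

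The three-way interaction asks whether the triplet departs from what the single ligands and pairs add up to on the log2 scale, and 5 genes passed, 3 above 0 (0.0636%) and 2 below (0.0424%). Clec4e had the smallest p (1.49 ± 0.25, adjusted p = 6.42e-05), followed on the positive side by H2-M2, a non-classical MHC class I gene (1.94), and Sod2 (1.02, adjusted p = 0.0166). Below 0 were Arhgap25, a Rac GTPase-activating protein (-3.79), and Ehd4, an endocytic recycling protein (-2.81, adjusted p = 0.007302). Ehd4 lost the call without Ctrl replicate 2 (-2.63, adjusted p = 0.0623). The term rests on all libraries of the 8 groups, and the number of genes called was 4 to 11 when 1 library was left out.

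Among other genes fixed for every comparison, Ccl22 had values near 0 when cGAMP or Zymosan was the added ligand, at -0.04 ± 0.14 and 0.04 ± 0.15, with both signs changing under other settings. Nos2 was at 105 ± 8.96 CPM in the triplet against 52.3 ± 13.5 and 46.2 ± 6.40 CPM in the pairs with Zymosan, above in every library and without a call in either comparison. Egr2, an immediate early transcription factor, had 8 counts over the triplet and 23, 17 and 8 over the pairs and was not called.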

How the data were processed

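Libraries of dendritic cell RNA were made with unique molecular identifiers, and the deposited table gives counts of unique molecules per gene, not normalized, for 23481 genes in 192 libraries. Reads were aligned by the authors with BWA 0.7.15 to mm10, per the submitters' processing notes; how reads matching several genes or strands were counted is not given in the sources used here, so genes with near-identical copies are uncertain. Groups were taken from the sample labels, and all table columns matched a sample.

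One model was fitted with edgeR 4.0.16 (R 4.3.3, limma 3.58.1) to all 192 libraries, with 1 coefficient per group, so that 128 residual degrees of freedom share the estimate of spread. Low genes were filtered with filterByExpr, which left 4720 genes holding 95.72% of the counts, and 8619 genes had no count. TMM scaling, quasi-likelihood tests and Benjamini-Hochberg adjustment over all tested genes followed, with calls at 0.05. CPM (counts-per-million) values use the scaled library totals. Replicates differed by more than sampling noise, so none was counted as a duplicate. Deviations of same-numbered libraries correlated weakly (18 correlations, -0.018 to 0.049, none above 0.1), and the labels give no shared source, so the numbers were not used as pairs.

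Alternatives were RLE scaling, total count alone, no filter, DESeq2 1.42.0, a fit on the 8 groups of the 3 ligands, thinning to 124494 counts, a log2 fold threshold of 1, a replicate block and leaving out each library, for which the filter was applied anew (4959 to 5035 genes tested). The refits without a library kept the trend of spread over level that was estimated with all libraries. In data simulated for the CpGB comparison (4720 genes), the fit called 45 of 50 genes raised 4-fold, 14 of 50 raised 2-fold, 14 of 50 lowered to 0.5, 19 of 50 lowered to 0.25 and 4 of 4520 unchanged genes. Named genes were the 5 largest called rises and falls per comparison whose libraries did not overlap and that averaged 50 CPM or more in one group, the up to 4 called members with the smallest p in each group of genes, the 2 interactions of each sign with the smallest p, and a fixed list. Members of counts of 5 or fewer, and the genes of the closing observations, were named after their values were seen. The members and gene lists were chosen with earlier results of these data known. Tables were summarised with Python 3.11.15, pandas 2.3.3, SciPy 1.17.1 and matplotlib 3.10.9. Ratios of low counts have exact 95% intervals for counting error only. Promoter sequences are from RefSeq (GRCm38.p6), 250 bases before each start.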

Additional observations from a re-analysis of the deposited data

Results flagged for a closer look

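Each result here is a difference, tested in the same edgeR fit, between a ligand's effect on the pair and its effect alone, or the three-way term, on the log2 scale. Effects with a difference below 0 were weaker or lower on the pair. For CpGB, Gbp2 differed by -3.26 (adjusted p = 1.87e-30) and Irg1 by -2.70 (4.26e-30): Irg1 rose by 2.66 ± 0.15 (SE) with CpGB alone and stood at -0.04 ± 0.11 on Zymosan with cGAMP. On the other side Mmp12 differed by 1.27 (1.44e-08) and Lgals3 by 1.15 (3.31e-09), and both had fallen with CpGB alone.

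For cGAMP, Ifit1 differed by -3.84 (adjusted p = 3.35e-32) and Mx1 by -3.42 (3.89e-34), and Neat1, a nuclear long noncoding RNA, by 1.29 (2.18e-08) and Anxa1 by 1.09 (8.99e-05). Neat1 had fallen by 1.16 ± 0.13 with cGAMP alone and stood at 0.12 ± 0.14 on Zymosan with CpGB. For Zymosan, Clec4e differed by -2.91 (6.97e-33), Sod2 by -2.08 (7.84e-23), Rps24, a ribosomal protein gene, by 1.10 (0.0002274) and Lgals3 by 0.99 (1.29e-06). Sod2 rose by 1.64 ± 0.14 with Zymosan alone and fell by 0.44 ± 0.10 on cGAMP with CpGB. Anxa1 and Rps24 were above 0 in the difference for all 3 ligands, and the 3 differences share the triplet and Ctrl libraries.

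In the three-way term, Clec4e was at 1.49, H2-M2 at 1.94, Arhgap25 at -3.79 and Ehd4 at -2.81. Their levels in the triplet and the pairs were 2171 to 2819 CPM for Clec4e over all 12 libraries and, for Arhgap25, 68.8 ± 16.7 CPM (SD, n = 3) in the triplet against 157 ± 29.5, 138 ± 30.9 and 71.5 ± 26.4 CPM in Zymosan with cGAMP, Zymosan with CpGB and cGAMP with CpGB.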

How the results depend on the processing

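Counts that moved by over 1.5 times were these. With CpGB added, genes higher numbered 125 and, at a log2 fold of at least 1, 74; genes lower numbered 63, with 36 in DESeq2, 118 in the fit on the 8 groups and 27 at a log2 fold of at least 1. With cGAMP added, 220 higher became 142 with no filter and 135 at a log2 fold of at least 1, and 132 lower became 80 at that fold. With Zymosan added, 110 lower became 43 at that fold. By the joint test on the largest of 3 p-values, genes above and below all 3 pairs went from 0 and 0 to 5 and 1 in the fit on the 8 groups, and the three-way term from 5 to 14 with total count alone.

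Leaving out 1 library gave 81 to 103 higher and 35 to 52 lower for CpGB, 150 to 190 and 84 to 114 for cGAMP, 93 to 118 and 76 to 109 for Zymosan, 0 to 0 above and below all pairs, 414 to 502, 355 to 445 and 173 to 218 for the differences from the effects of CpGB, cGAMP and Zymosan alone, and 4 to 11 for the three-way term. The lowest came without Zymosan_cGAMP replicate 2 for CpGB higher (82 without replicate 3), without triplet replicate 3 or Zymosan_cGAMP replicate 3 for CpGB lower (35 each, with 38 without triplet replicate 1 and 41 without Zymosan_cGAMP replicate 2), without Zymosan_CpGB replicate 2 for cGAMP lower, and without cGAMP_CpGB replicate 2 for Zymosan higher. The three-way term passed 1.5 times its count without triplet replicate 3 (8), Zymosan_CpGB replicate 3 (8), Zymosan replicate 1 (10) or 3 (11) or cGAMP replicate 1 (9). These refits applied the filter anew and tested 4959 to 5035 genes in place of 4720, so they differ from the fit over all libraries in genes as well as libraries. They kept the trend of spread over level from the fit over all libraries, in which the left-out library took part. The cause of each shift was not tested.

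Among gene groups, cytokines higher with CpGB ranged from 8 to 11 over 14 settings, interferon response genes higher with cGAMP from 8 to 12 and glycolysis and hypoxia genes higher with Zymosan from 10 to 12. Interferon response genes lower with CpGB ranged from 1 to 4, and oxidative stress genes higher with Zymosan from 1 to 4. Of 2539 alternative values for named genes, 2409 kept their direction and side of the threshold, 118 lost the call and 2 gained one (Ifit1 with Zymosan and Nos2 with cGAMP in the fit on the 8 groups); 30 of 171 called results lost the call at least once. The 10 reversed values were all of uncalled differences, given with the range of each without 1 library: Il12b with Zymosan (0.14 without cGAMP_CpGB replicate 1, range -0.62 to 0.14); Ccl22 with cGAMP (0.01 thinned, 0.03 and 0.07 without triplet replicate 2 and Zymosan_CpGB replicate 2, range -0.1 to 0.07) and with Zymosan (-0.01 unfiltered, -0.06, -0.04 and -0.11 without triplet replicate 3 and cGAMP_CpGB replicates 1 and 3, range -0.11 to 0.16); Ptgs2 with Zymosan (0.0 without triplet replicate 3, range 0.0 to 0.27); and Egr2 with Zymosan (-0.22 without triplet replicate 1, range -0.22 to 0.69). The cause was not tested.

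With the replicate block, counts were 129 and 74 for CpGB, 225 and 140 for cGAMP, 146 and 112 for Zymosan, 506, 423 and 229 for the differences from the effect alone, 5 for the three-way term and 0 above or below all pairs. The labels give no source for the pairing; 10 of 12 libraries correlated best with their own number, a hint from the data only. In the data simulated for the CpGB comparison, 28% of genes raised 2-fold, 28% of those lowered to 0.5 and 38% of those lowered to 0.25 were called. Of those raised 4-fold, 90% were. Changes of 2-fold and falls to 0.25 were thus often not detected there, and the other comparisons were not simulated.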

Other observations

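The genes in these paragraphs lie outside the gene groups and were picked after their values were seen, among those with the smallest p in each comparison. With CpGB added, the acid phosphatase gene Acpp was at 382, 314 and 389 CPM in the triplet against 49.0, 70.4 and 53.2 CPM in Zymosan with cGAMP (2.64 ± 0.28, SE, adjusted p = 5.71e-15, edgeR), and Acp5, tartrate-resistant acid phosphatase, rose by 1.38 ± 0.15. The acute-phase gene Saa3 rose by 1.90 ± 0.22 with CpGB and fell by 1.2 ± 0.18 with cGAMP. Edn1 was at 921, 812 and 849 CPM against 196, 205 and 247 CPM in Zymosan with cGAMP, and rose in all 3 comparisons (1.97 ± 0.25, 0.93 ± 0.22 and 0.74 ± 0.22 with CpGB, cGAMP and Zymosan, which share the triplet libraries). The lectin receptor Clec4n (Dectin-2) fell by 1.01 ± 0.18 with CpGB and by 1.27 ± 0.18 with cGAMP, the lysosomal lipase Lipa by 0.79 ± 0.15 with CpGB, and the glutathione peroxidase Gpx1 by 0.82 ± 0.15 with CpGB.

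With cGAMP added, Peli1, an E3 ubiquitin ligase of Toll-like receptor signalling, was at 678, 628 and 651 CPM against 118, 123 and 141 CPM in Zymosan with CpGB (2.34 ± 0.25, adjusted p = 6.68e-15), and the RNA sensor Ifih1 (MDA5) rose by 1.41 ± 0.15. Slpi, a protease inhibitor, and the proteoglycan Sdc4 rose by 2.10 ± 0.26 and 1.86 ± 0.24, while the phosphatase Ptpn1, the proton channel Hvcn1 and the haem synthesis enzyme Alas1 fell by 1.28 ± 0.18, 1.26 ± 0.18 and 1.39 ± 0.19. With Zymosan added, Spp1 (osteopontin) was at 2712, 2758 and 2694 CPM against 1036, 1164 and 1207 CPM in cGAMP with CpGB (1.25 ± 0.14, adjusted p = 1.89e-13). The lipid droplet protein Hilpda (2.39 ± 0.34), the fatty acid carrier Fabp4 (1.88 ± 0.26), the protein C receptor Procr (1.43 ± 0.22) and vimentin, Vim (1.16 ± 0.14), rose as well. The scavenger receptor Marco was at 965, 759 and 1040 CPM against 2131, 2151 and 2563 CPM (-1.30 ± 0.20, adjusted p = 1.01e-07), and the formyl peptide receptor Fpr1, the integrin Itgal and the NRF2 gene Nfe2l2 fell by 1.16 ± 0.18, 1.36 ± 0.22 and 1.15 ± 0.20.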
